A study of Mus musculus with 8 samples.

Results

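The transcripts described here are those of 6 mouse genes for the use and transport of ketone bodies, out of 18215 genes listed in heart libraries: the carriers Slc16a1 and Slc16a6, the dehydrogenases Bdh1 and Bdh2, the CoA transferase Oxct1 and the thiolase Acat1. They were chosen by name for their place in this pathway, and their rows were found through the NCBI Gene numbers of the deposited tables. Polyadenylated RNA was sequenced from hearts of mice that carry a Carns transgene (TG, 4 libraries) and of wild-type mice (WT, 4 libraries). Carns1 encodes carnosine synthase, the enzyme that forms histidyl dipeptides. The labels give no strain, age, sex, promoter or founder line, and they do not say whether the libraries of a group come from separate animals. Every p-value therefore rests on the spread among these libraries alone, and that spread may be technical.

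Ketone bodies are made in the liver from the acetyl-CoA of fatty acid breakdown and are burned by the heart, the brain and muscle when they circulate, as in fasting. In the heart, monocarboxylate carriers of the Slc16 family bring 3-hydroxybutyrate and acetoacetate into the cell, and Bdh1 in the mitochondrion oxidises 3-hydroxybutyrate to acetoacetate. Oxct1 then moves a CoA group from succinyl-CoA to acetoacetate, the step that commits it to use, and Acat1 splits acetoacetyl-CoA into acetyl-CoA for the citrate cycle. Liver cells lack Oxct1, and so export the ketone bodies they make.

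No difference between TG and WT hearts was called in these genes. Of the 6 genes, 5 passed the filter on low counts and were tested with 12670 genes in all, and 0 of the 5 passed the threshold of an adjusted p of 0.05 (edgeR quasi-likelihood test, Benjamini-Hochberg adjustment, used for every adjusted p unless another tool is named). Over all genes 2 passed, 0.0158%. None of the 5 had an unadjusted p under 0.05 in this test, where 3.49% of all genes did. DESeq2 called 0 of them too, and 15 of 12670 genes in all. The TG and WT ranges overlapped in each of the 5, against a background of 2.53% of all genes whose ranges did not. The widest fitted difference of the 5 was that of Oxct1, at 0.85-fold in TG with a 95% interval of 0.67 to 1.07.

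The libraries held between 6261193 and 7897629 expected counts, that is, estimated reads per gene, so that 3 counts correspond to 0.380 to 0.479 CPM (counts scaled to library size). Carns1 stood at 19071 to 24288 CPM in the libraries labelled TG and at 44.5 to 73.3 CPM in those labelled WT, and no library went against its label. Markers of heart muscle cells summed to between 65266 and 79775 CPM in every library. The totals fell into a deeper set (TG replicates 1 and 3, WT replicates 1 and 2) and a shallower set (TG replicates 2 and 4, WT replicates 3 and 4), divided at the widest gap between them. The labels name no batch. Of all tested genes, 16.0% stood higher in every shallower than in every deeper library and 13.9% the other way round.

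Measured per length, Oxct1 was the most abundant of the 6 transcripts. It stood at 214 ± 46 FPKM (fragments scaled to gene length and library size) in the TG libraries and 255 ± 53 FPKM in the WT libraries (SD, n = 4 each). Acat1 followed at 110 ± 12 and 114 ± 9 FPKM. Slc16a1 stood at 56.8 ± 8.8 and 58.0 ± 11.1 FPKM, and Bdh1 at 50.6 ± 5.9 and 46.8 ± 14.0 FPKM. Slc16a6 was far lower, at 3.25 ± 0.90 and 2.80 ± 1.20 FPKM, and Bdh2 lay between 0 and 0.55 FPKM in all 8 libraries. The order Oxct1, Acat1, Slc16a1 held in 8 of 8 libraries with no overlap in FPKM. Slc16a1 and Bdh1, the next neighbours in the order, did not differ beyond their spread: Slc16a1 was the higher in 5 of 8 libraries. By mean FPKM over the libraries, Oxct1 ranked at the 97.2th percentile of the tested genes, Acat1 at the 94.7th, Slc16a1 at the 90.0th, Bdh1 at the 88.2th and Slc16a6 at the 29.1th.

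**Figure D1:**
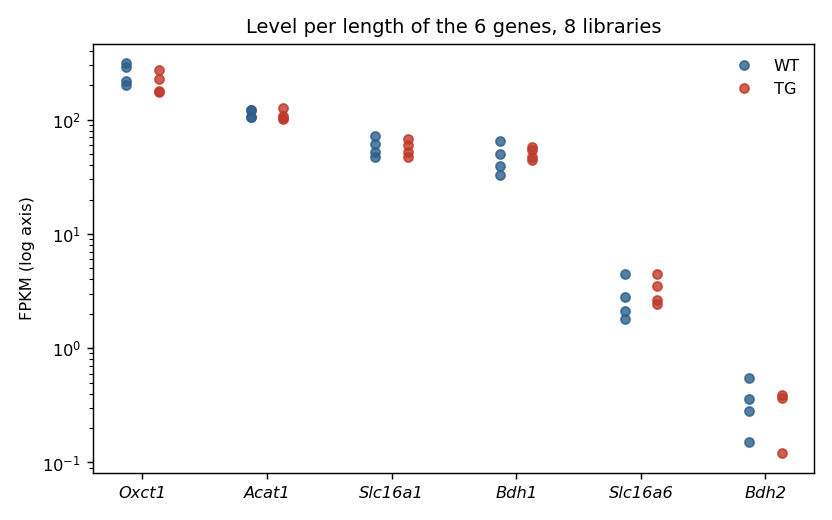
FPKM on a log axis for each of the 6 genes in 4 WT (blue) and 4 TG (red) libraries, 1 point per library; TG replicate 2, whose table does not list Bdh2, has no point for it. Oxct1 and Acat1 lie above the other 4 genes in every library, Slc16a1 and Bdh1 overlap, and Slc16a6 and Bdh2 lie at the bottom.

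Slc16a1 encodes MCT1, a proton-coupled carrier for lactate, pyruvate and ketone bodies. It stood at 218, 299, 242 and 264 CPM in TG replicates 1 to 4 and at 235, 220, 320 and 262 CPM in WT replicates 1 to 4. The groups overlapped almost wholly, and the 4 highest values were those of the shallower libraries. The log2 fold change was -0.02 (SE 0.14, adjusted p = 1), with a 95% interval from -0.31 to 0.28.

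Slc16a6 encodes MCT7, a relative described as a ketone body exporter of the liver. It stood at 10.7, 14.6, 11.4 and 18.1 CPM in TG replicates 1 to 4 and at 11.8, 7.91, 18.7 and 8.56 CPM in WT replicates 1 to 4. One library of each group stood near 18 CPM, and the lowest 2 values were WT. Its counts ran from 56 to 124 per library, and its log2 fold change of 0.22 had an SE of 0.26 (95% interval -0.35 to 0.79, adjusted p = 1). That value was 0.53 without WT replicate 3 and 0.06, 0.07 and 0.10 without TG replicate 4, WT replicate 2 and WT replicate 4. Its size thus depended on which library was left out. The exons of Slc16a6 share 611 bases with those of Amz2 on the opposite strand in the GENCODE M21 annotation. Amz2 stood at 25.1 to 30.0 FPKM, well above Slc16a6, and the use of strand in counting is not given in the labels. Reads of the 2 genes may therefore not have been told apart.

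Bdh1, the mitochondrial 3-hydroxybutyrate dehydrogenase, stood at 176, 139, 153 and 176 CPM in TG replicates 1 to 4. In WT replicates 1 to 4 it stood at 126, 165, 102 and 197 CPM. The 4 TG values fell inside the WT range, which spanned 1.93-fold. The log2 fold change was 0.13 (SE 0.18, 95% interval -0.25 to 0.51, adjusted p = 1). It moved to -0.01 without WT replicate 3, the library with the lowest Bdh1, and to 0.30 without WT replicate 4, the library with the highest.

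Bdh2 encodes a cytosolic dehydrogenase of the same short-chain family. It had 1, 0, 3 and 3 expected counts in TG replicates 1 to 4 and 5, 3, 2 and 1 in WT replicates 1 to 4. These are 7 and 11 counts over a whole group, and 7 of the 8 libraries held no more than 3. Bdh2 did not pass the filter, so no test and no fold change are given, and a difference was not detectable at this depth.

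**Figure D2:**
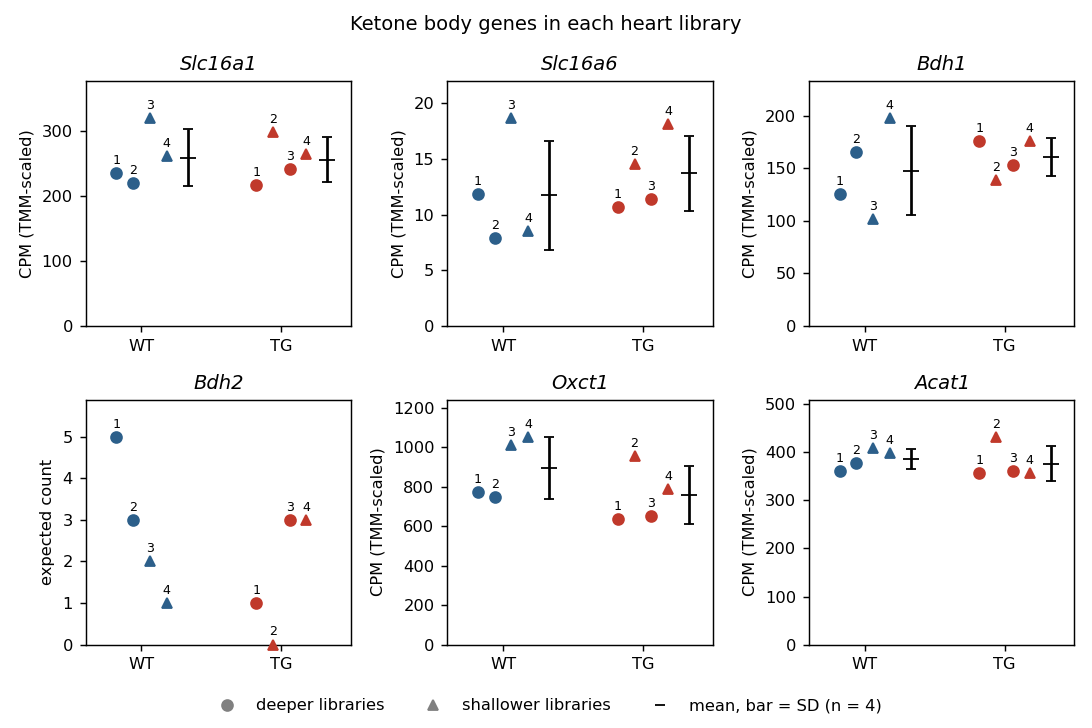
Each gene in each library: CPM (Bdh2: expected counts) on axes that start at 0, WT in blue and TG in red, with the replicate number above each point, circles for the deeper and triangles for the shallower libraries, and the mean with its SD (n = 4) to the right of each group except for Bdh2. The groups overlap in all panels; in the Oxct1 and Slc16a1 panels every triangle lies above every circle.

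Oxct1 encodes succinyl-CoA:3-ketoacid CoA transferase, the enzyme that opens the use of acetoacetate. It stood at 637, 957, 653 and 787 CPM in TG replicates 1 to 4 and at 774, 747, 1012 and 1053 CPM in WT replicates 1 to 4. The lowest 2 values were TG, the highest 2 were WT, and TG replicates 2 and 4 stood above 2 of the WT libraries. The log2 fold change was -0.24 (SE 0.16, 95% interval -0.58 to 0.10, adjusted p = 1). It lay between -0.37 and -0.15 when any 1 library was left out, with -0.37 without TG replicate 2 (edgeR, unadjusted p = 0.0299, adjusted p = 1), -0.32 without WT replicate 2, and -0.16 and -0.15 without TG replicate 1 and WT replicate 4.

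Oxct1 divided by the depth of the libraries without overlap. It lay between 637 and 774 CPM in the deeper libraries and between 787 and 1053 CPM in the shallower ones. Within each of these sets both TG libraries stood below both WT libraries, with a TG to WT ratio of 0.849 in the deeper and 0.845 in the shallower set. Of all tested genes, 4.69% were lower in TG without overlap within both sets, a count made after the values of Oxct1 were seen. With the depth set as a covariate the log2 fold change remained -0.24 while its SE was 0.071, and the adjusted p was 0.322 (edgeR), in a fit that called 28 of 12670 genes, 0.221%. The unadjusted p was 0.148 without that term and 0.00517 with it, and neither fit called Oxct1 after adjustment. The share of all tested genes with an unadjusted p under 0.05 also rose, from 3.49% without the term to 8.97% with it. Within the deeper and the shallower libraries alone, the fold change was also -0.24 (edgeR, unadjusted p = 0.0213 and 0.0788, adjusted p = 0.436 and 0.906). In those fits 9.15% and 5.55% of the tested genes had an unadjusted p under 0.05.

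Slc16a1 showed the same division by depth, with 218 to 242 CPM in the deeper and 262 to 320 CPM in the shallower libraries. Its TG to WT ratio was 1.01 in the deeper and 0.969 in the shallower set. Acat1, Bdh1 and Slc16a6 overlapped between the sets. Of 9 lists of cell markers, only those of fibroblasts and heart muscle cells divided by depth without overlap, and the other lists overlapped between the sets. The 5 fibroblast markers summed to 957 to 979 CPM in the deeper and 1097 to 1540 CPM in the shallower libraries. The 8 heart muscle markers summed to 73343 to 79775 CPM in the deeper and 65266 to 69838 CPM in the shallower libraries. The part of either in the Oxct1 and Slc16a1 values was not tested. In RNA of a whole heart, fewer cells of a type and less RNA per cell cannot be told apart.

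The upstream sequences of Slc16a1 and Oxct1 are shown because they differ in kind. Their transcripts divided by depth in the same direction, as did 16% of all tested genes. A link between that division and the sequences was not tested. The 250 bases before the annotated start, from RefSeq on GRCm38.p6, lie at chr3:104638414-104638663 for Slc16a1 and at chr15:4026178-4026427 for Oxct1, both on the plus strand. Capitals mark motif matches.
Slc16a1: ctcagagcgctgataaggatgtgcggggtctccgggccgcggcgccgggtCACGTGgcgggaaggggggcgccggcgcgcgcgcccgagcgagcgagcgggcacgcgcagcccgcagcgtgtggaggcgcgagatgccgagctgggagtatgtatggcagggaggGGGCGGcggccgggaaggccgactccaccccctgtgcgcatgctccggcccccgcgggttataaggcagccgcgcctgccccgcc
Oxct1: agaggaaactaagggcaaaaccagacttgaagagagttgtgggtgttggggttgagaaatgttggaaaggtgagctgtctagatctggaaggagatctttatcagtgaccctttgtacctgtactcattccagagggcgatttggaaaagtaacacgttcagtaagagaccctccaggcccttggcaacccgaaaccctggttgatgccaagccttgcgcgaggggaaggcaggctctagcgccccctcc
The Slc16a1 window is 76.4% G and C with 37 CpG pairs, and the Oxct1 window 52.0% with 6, where the medians of 32851 promoter windows are 52.4% and 6. The motifs searched on both strands were AGGTCA (a nuclear receptor half-site), CACGTG (an E-box), GGGCGG (a GC box), TGACGTCA (a cyclic AMP response element), CCAAT and TATAAA. Slc16a1 holds 1 CACGTG, which 6.02% of all windows hold, and 1 GGGCGG, which 32.7% hold. None of these letters is in the Oxct1 window. A match is a description of the sequence and not a bound site.

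Acat1, the mitochondrial acetoacetyl-CoA thiolase that also serves isoleucine breakdown, was the steadiest member. It stood at 358, 432, 361 and 357 CPM in TG replicates 1 to 4 and at 361, 378, 408 and 399 CPM in WT replicates 1 to 4. TG replicate 2 was the highest of the 8, and the other TG values lay near the lowest WT value. The log2 fold change was -0.04 (SE 0.10, 95% interval -0.26 to 0.19, adjusted p = 1) and -0.11 without TG replicate 2. The coefficient of variation of its CPM was 9.83% in TG and 5.53% in WT, where Oxct1 had 19.6% and 17.6%. TG replicate 2 also held the highest sum of the 8 adipocyte markers, 890 CPM, against 2.22 to 45.2 CPM in the other 7 libraries. Its 4 atrial muscle markers summed to 856 CPM, against 61.3 to 259.8 CPM in the other 7. The part of either in the Acat1 and Oxct1 values of this library was not tested.

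**Figure D3:**
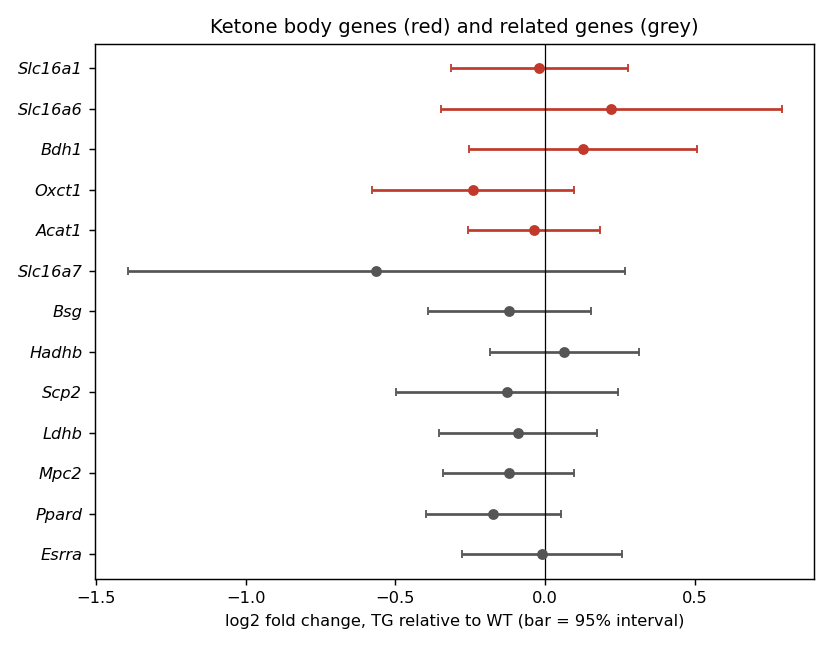
Log2 fold changes of TG relative to WT with 95% intervals, for the 5 tested ketone body genes (red) and 8 related genes (grey). The interval includes 0 for every point, and that of the scarce Slc16a7 is the widest.

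As a share of the summed FPKM of the 6 genes within each library, which does not depend on library scaling, Oxct1 made up 48.9% ± 3.2 of the sum in TG and 53.2% ± 2.9 of it in WT (SD, n = 4 each). Its share ran from 46.0% to 52.9% in TG and from 49.6% to 55.7% in WT. Bdh1 made up 11.9% ± 2.3 and 9.90% ± 2.69, Acat1 25.4% ± 1.6 and 24.1% ± 1.9, and Slc16a1 13.05% ± 0.52 and 12.2% ± 1.3. The share of Bdh1 ran from 6.28% in WT replicate 3 to 14.2% in TG replicate 1. The groups overlapped in the share of every gene, and no test was made of these shares since they are a score over the chosen genes.

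**Figure D4:**
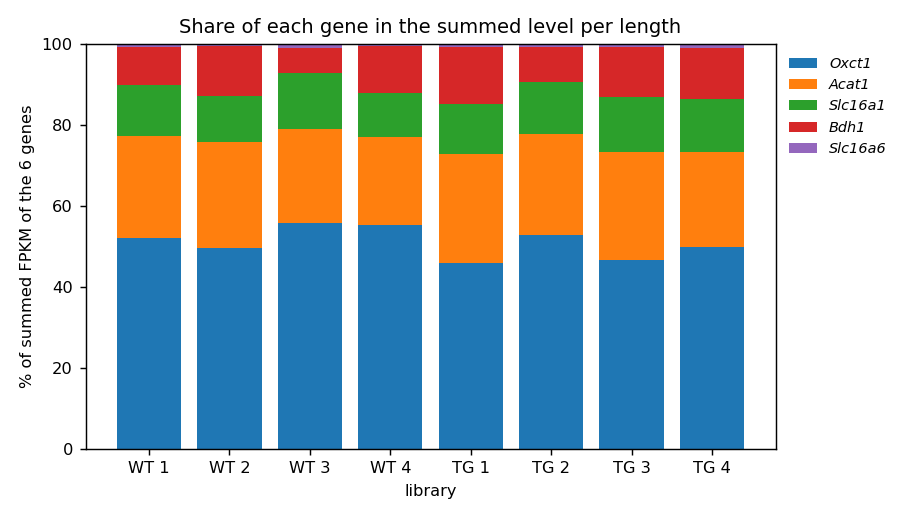
Stacked bars of the percent of the summed FPKM of the 6 genes taken by each gene in each library (Bdh2, at most 0.131%, is too small to draw). Oxct1 takes 46.0% to 55.7% of the sum in the 8 libraries, and the Bdh1 band is thinnest in WT replicate 3.

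Among the 10 pairs of tested members, the highest Pearson r over the 8 libraries was that of Oxct1 and Acat1 on log2 CPM (r = 0.82, exact permutation p = 0.0195, adjusted over the pairs 0.113; Spearman rho = 0.60, exact permutation p = 0.132, adjusted 0.393). Without WT replicates 3 and 4, the 2 libraries farthest from the median of Oxct1, r was 0.80. The libraries left include TG replicate 2, the highest of them in both Acat1 (432 CPM) and Oxct1 (957 CPM). The value of r with TG replicate 2 also left out was not computed. Slc16a1 and Oxct1 had r = 0.79 (exact permutation p = 0.0226, adjusted 0.113) and rho = 0.79 (exact permutation p = 0.0279, adjusted 0.184), and r = 0.66 without TG replicate 2 and WT replicate 3. This rho was the highest of the 10 pairs, and both genes stood higher in every shallower than in every deeper library. The carriers Slc16a1 and Slc16a6 followed with rho = 0.76 (exact permutation p = 0.0368, adjusted 0.184) and r = 0.71 (exact permutation p = 0.0503, adjusted 0.126), and r = 0.46 without the same 2 libraries. No pair passed after adjustment. Slc16a1 also had r = 0.75 with Acat1 (exact permutation p = 0.0365, adjusted 0.122; rho = 0.55, exact permutation p = 0.171, adjusted 0.393), which fell to 0.26 without TG replicate 2 and WT replicate 3 and thus rests on them. The depth sets hold 4 libraries each, too few for a correlation within them. Bdh1 and Oxct1, consecutive enzymes of the pathway, had r = -0.25 (exact permutation p = 0.547, adjusted 0.608) and rho = -0.02 (exact permutation p = 0.977, adjusted 0.977), and r = 0.16 without WT replicates 1 and 3.

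The 2 genes whose log2 CPM was most like that of each member over the 8 libraries, out of 11041 genes compared, were picked by Pearson r and so carry no test. For Oxct1 they were Lifr (r = 0.978), the receptor of leukaemia inhibitory factor, and the transporter Abcb1b (r = 0.972). For Acat1 they were Glo1 (r = 0.983), glyoxalase 1, and Scp2 (r = 0.981), a peroxisomal thiolase and sterol carrier. For Slc16a1 they were Map3k15 (r = 0.984) and Slc35f5 (r = 0.983). Both of these, like Lifr, stood higher in every shallower than in every deeper library, as did 16% of all tested genes. They were picked for likeness to members that divide in the same way. For Bdh1 they were Dpp7 (r = 0.953) and the fatty acid desaturase Fads1 (r = 0.937). For Slc16a6 they were the ornithine carrier Slc25a15 and Bhlhb9 (r = 0.984 for both).

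Around the members, 47 related genes in 5 lists were followed, of which 31 were tested and 0 passed in either direction. Of the 31, 9 stood higher and 22 lower in TG by their fold changes, where 6277 and 6393 of all 12670 tested genes did. The related genes were chosen by name and are not independent of each other, so no test was made of this count. The median log2 fold change was -0.02, against a median of 0.00 over all genes.

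Of 7 genes that make ketone bodies or activate acetoacetate in the cytosol, 4 were tested and 0 passed in either direction. Oxct2a and Oxct2b, the testis forms of the CoA transferase, were listed in no library.

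Of 15 other monocarboxylate carriers and their chaperones 8 were tested, 2 with a positive and 6 with a negative fold change. Bsg, basigin, the chaperone that brings MCT1 to the cell surface, was the most abundant at 1251 ± 165 FPKM in the TG and 1370 ± 89 FPKM in the WT libraries (SD, n = 4 each), with a log2 fold change of -0.12 (SE 0.13, adjusted p = 1). Slc16a7, which encodes the high-affinity carrier MCT2, had the smallest unadjusted p of the list, 0.166. It stood at 1.04, 3.33, 0.973 and 2.97 CPM in TG replicates 1 to 4 and at 2.19, 3.27, 3.46 and 3.21 CPM in WT replicates 1 to 4. Its 2 lowest values were those of the deeper TG libraries, and the other TG values lay within the WT range.

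Thiolases and their partners in releasing acetyl-CoA, 6 of 7 tested, had log2 fold changes between -0.13 and 0.07. Hadhb, the thiolase subunit of the mitochondrial trifunctional protein, stood at 676 ± 88 FPKM in TG and 650 ± 56 FPKM in WT, and Scp2 at 61.3 ± 18.3 and 67.5 ± 11.1 FPKM (SD, n = 4 each). The 8 genes of lactate and pyruvate handling were all tested and lay between -0.33 and 0.10. Ldhb, the heart form of lactate dehydrogenase, stood at 1181 ± 85 and 1264 ± 124 FPKM, and Mpc2, a subunit of the mitochondrial pyruvate carrier, at 230 ± 19 and 253 ± 20 FPKM (SD, n = 4 each). Of 10 regulators and receptors 5 were tested and lay between -0.17 and 0.34. The nuclear receptors Esrra and Ppard stood at 76.6 ± 9.0 and 23.4 ± 1.3 FPKM in TG and at 77.7 ± 6.0 and 26.6 ± 2.6 FPKM in WT libraries (SD, n = 4 each). The ketone and fatty acid receptor Ffar3 was listed in no library, and Hcar2, the receptor for 3-hydroxybutyrate, in 2 of 8.

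**Figure D5:**
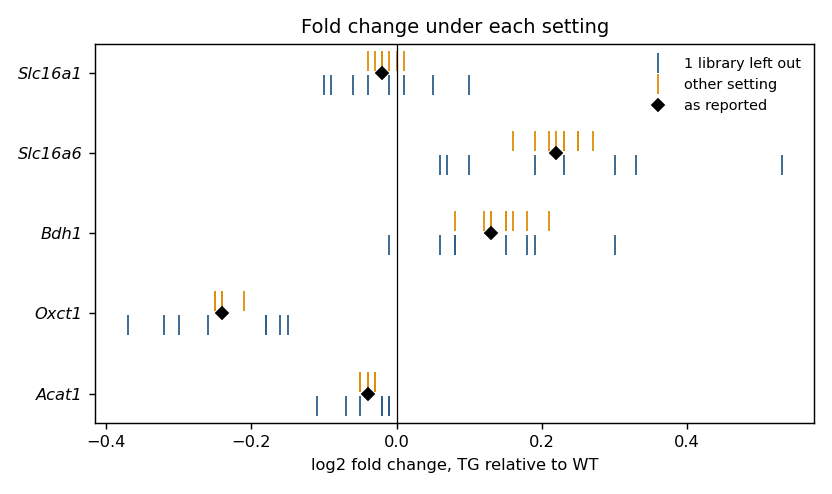
Log2 fold change of TG relative to WT for the 5 tested members: black diamonds give the values reported, blue ticks the fits with 1 library left out and orange ticks the other settings. Oxct1 stays between -0.37 and -0.15, while Slc16a1 lies on both sides of 0.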

How the data were processed

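Each of the 8 deposited tables lists genes by NCBI Gene number and gives their length, expected count and FPKM, per the file headers. These expected counts are the authors' estimated reads per gene, not normalized, and the deposited FPKM values are scaled to gene length and library size. The submitters' processing notes name Bowtie2 and the mouse build mm8, while the counting program and strand use are not given in the sources used here. Genes absent from a library's table were taken as 0. Symbols came from the NCBI table of GRCm38.p6, which matched 18174 of 18215 numbers, and from which promoter sequences also come. Exon overlaps used GENCODE M21.

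Counts were rounded and filtered with edgeR's filterByExpr (minimum count 10, minimum total 15), scaled by TMM and tested with edgeR 4.0.16 (R 4.3.3) by group, two-sided, on 12670 genes. CPM use the TMM-scaled library sizes, and log2 CPM a prior count of 2. The SE is the absolute log2 fold change over the square root of F. Alternatives used DESeq2 1.42.0 and limma 3.58.1, the latter on log2(FPKM + 1), on log2(FPKM + 0.1) and with voom. The test was checked on simulated counts, in which no gene was made to differ between the depth sets. The smallest count considered detectable was 3 in a library, which covers counting error only. From each list of related genes the rule named the most abundant member, the one with the smallest p and any past the threshold. Some of the genes so named are left out of this account. Members, lists and most settings were chosen with earlier results of these data known.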

Additional observations from a re-analysis of the deposited data

Results flagged for a closer look

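The highest and lowest libraries of each group were checked for a value far from the other 3, in 14 genes and 28 group values. Acat1 in TG replicate 2, at 432.5 CPM, stood apart from the other TG libraries (357 to 361 CPM). Scp2, one of the genes most like Acat1 across the libraries, stood apart in the same library at 235.7 CPM, where the other TG libraries lay between 138 and 147 CPM. In WT replicates 3 and 4 Scp2 stood at 203 and 199 CPM. Such a check marks about 1 in 20 groups by chance, and 2 of 28 were marked.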

How the results depend on the processing

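Over 20 other settings no fit called any of the 5 tested members, and Oxct1, Acat1 and Slc16a6 kept their direction in all 20. The number of genes called, 2 of 12670 as reported, was 15 with DESeq2, 4 without a filter on low counts, 1 with the replicate block, 1 by limma with either FPKM pseudocount, 1 or 0.1. It was 28 with the depth set as a covariate, 59 in the deeper and 4 in the shallower libraries only, and 1 to 3 with 1 library left out. With the Carns1 counts left out it was 0 by edgeR, where 443 genes had an unadjusted p under 0.05. Slc16a1 turned direction in 5 settings: its log2 fold change was 0.00 with voom and library weights, 0.01 in the deeper libraries only, and between -0.10 and 0.10 with 1 library left out. With 1 library left out Bdh1 ranged from -0.01 to 0.30, Hadhb from -0.02 to 0.11 and Esrra from -0.10 to 0.06, and Esrra was 0.01 in the deeper libraries only. The cause was not tested.

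With Oxct1 left out of the sum, by construction, the mean shares of FPKM in TG and WT became 25.6% and 26.1% for Slc16a1, 1.46% and 1.27% for Slc16a6, 23.1% and 21.1% for Bdh1, 0.102% and 0.158% for Bdh2, and 49.8% and 51.4% for Acat1. Leaving out 1 library moved no share by more than its SD.

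Same-numbered TG and WT libraries had correlations of their deviations of 0.24, -0.28, -0.18 and 0.40. Every TG and WT pair within a depth set had a positive value, and every pair across the sets a negative one. The values thus follow the depth sets and cannot decide whether the numbers pair the samples. With the replicate block no call on a member changed, and Oxct1 stood at -0.24 and Bdh1 at 0.16.

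Bdh2, at 0 to 5 counts per library, is limited by depth. Slc16a6 had 56 to 124 counts per library. The coefficient of variation of its CPM was 24.8% in TG and 41.9% in WT.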
